A study of Mus musculus with 5 samples.

Results

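The genes described here are 10 that encode enzymes cutting the extracellular matrix or proteins that inhibit such enzymes: the metalloproteinase genes Mmp2 and Mmp14, the aggrecanase-family genes Adamts1, Adamts4 and Adamts5, the cathepsin gene Ctsk, the serine protease gene Htra1, and the inhibitor genes Timp1, Timp3 and Timp4. They were chosen by name with earlier results of these data known, as were the gene lists used below. Their counts beside those of all genes are therefore a description and no test. Every probe set annotated to a single one of these symbols was read. All 10 were found, with 22 of the 45101 probe sets, and all 10 were among the 11075 genes, of 18193 named by a probe set, whose brightest probe set had a mean intensity at or above the median of all probe sets.

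The samples were primary chondrocytes, the cells that make cartilage, taken from the ribs of FVB mouse embryos of gestational day 18.5. They were freed with collagenase and trypsin, plated densely on gelatin, and kept in serum-containing medium with ascorbic acid and beta-glycerophosphate. Cells were taken at days 2, 6, 9, 12 and 15 and measured on 5 expression arrays, 1 per day, so all 5 groups share strain, age and medium by their labels, and day cannot be told apart from the array and its labelling. The labels used here do not say how many embryos were pooled, or whether the 5 arrays came from a common isolate.

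Cartilage and bone matrix are taken apart by enzymes of several classes. MMP14 sits in the cell membrane and activates pro-MMP2, a gelatinase, in a complex that also needs an inhibitor of the TIMP family. ADAMTS4 and ADAMTS5 are the main enzymes that cut aggrecan, the proteoglycan that gives cartilage its stiffness. Cathepsin K cuts triple-helical collagen and is best known in osteoclasts, the bone-resorbing cells, and HTRA1 is a secreted serine protease that cuts several matrix proteins. TIMPs bind the active site of metalloproteinases, and TIMP3, which is held in the matrix, is also a strong inhibitor of ADAMTS4 and ADAMTS5.

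The cells carried the markers of their label at the start, and other marker lists differed with time. All 10 chondrocyte markers were above the floor on all 5 arrays. The floor is an intensity of 73.1, to which lower values were raised before folds were taken. The sums given here used intensities as deposited, so they include values under the floor. The summed intensity of the chondrocyte markers went from 147851 at day 2 through 157645 at day 6 to 49304 on the last array. Between days 2 and 15 the sum over the 6 of 8 osteoblast markers found went from 883 to 79289, over 8 fibroblast markers from 7971 to 84141, over 7 smooth muscle and pericyte markers from 11254 to 39532, and over the 7 of 9 adipocyte markers found from 2083 to 34832, with 64443 at day 12. Each sum follows its brightest genes, and some members went the other way. At day 15 Matn1 of the chondrocyte list was 3.50-fold higher than at day 2. Cspg4 of the smooth muscle list was 2.31-fold lower and Pparg of the adipocyte list 1.09-fold lower. Lep of the adipocyte list and Myh11 of the smooth muscle list were at the floor on all 5 arrays. The sum over 9 macrophage and blood markers lay between 771 and 1628 and that over 7 endothelial markers between 207 and 520. Itgam, Tyrobp, Pecam1 and Tek were at the floor on all 5 arrays, and 1 of the 7 endothelial genes was above it at day 9. Csf1r, Cd68, Cd14 and Lyz2 were above the floor on all 5. Between days 2 and 15 Cd14 was 3.49-fold, Lyz2 1.23-fold and Csf1r 1.21-fold lower, and Cd68 1.44-fold higher. The other Csf1r probe sets gave log2 differences of 1.73 and 0.07. The sum over 6 skeletal muscle markers lay between 894 and 1885. These arrays read whole cultures, so a different share of cells of a type and a different amount of RNA per cell cannot be told apart. The part of these cell types in the results on proteases and inhibitors was not tested.

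**Figure D1:**
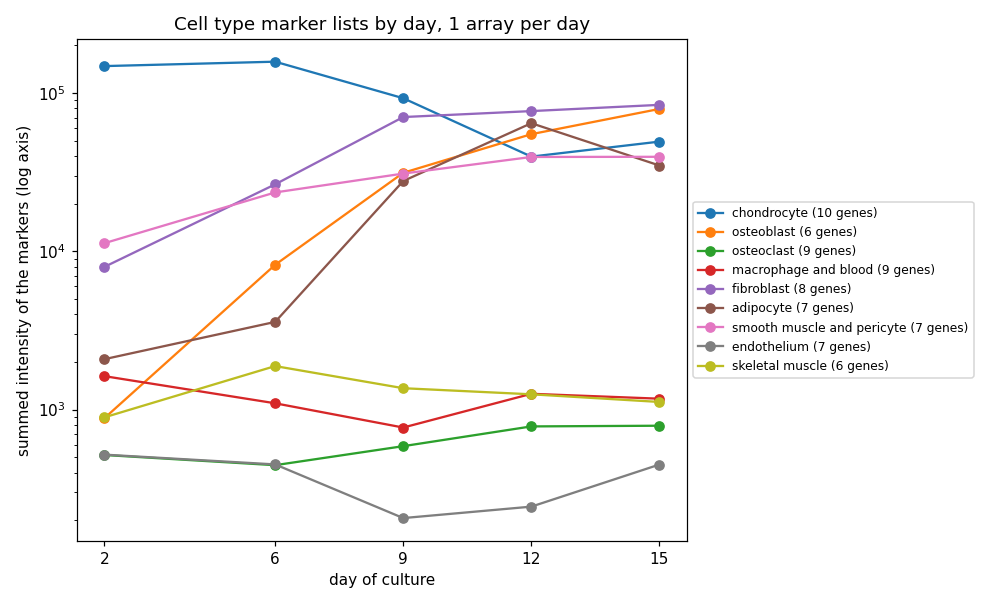
Summed intensity of each cell type marker list (log axis) against day of culture, 1 array per day, with the number of genes in each sum in the key. The chondrocyte sum was 49304 at day 15 against 147851 at day 2, while the osteoblast, fibroblast, adipocyte and smooth muscle sums were higher at day 15 than at day 2.

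The 3 TIMP genes followed 3 different courses, and the sequences before their starts are shown so that the family members can be set side by side. RefSeq (GRCm38.p6) held upstream sequence for 7 of the 10 genes: Mmp14, Adamts1, Ctsk, Htra1, Timp1, Timp3 and Timp4. The 250 bases before the annotated start are printed 5′ to 3′ on the gene's own strand, from chrX:20869916-20870165 on the plus strand, chr10:86300162-86300411 on the plus strand and chr6:115252206-115252455 on the minus strand. Capitals mark matches on either strand to GGGCGG, the core bound by SP1, and ACGTG, the core bound by hypoxia-inducible factors, which also lies inside the E-box CACGTG.
Timp1: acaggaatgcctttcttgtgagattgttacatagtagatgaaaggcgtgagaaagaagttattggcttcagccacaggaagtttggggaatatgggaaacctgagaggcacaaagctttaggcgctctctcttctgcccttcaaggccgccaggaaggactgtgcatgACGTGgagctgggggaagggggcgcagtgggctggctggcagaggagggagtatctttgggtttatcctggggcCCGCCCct
Timp3: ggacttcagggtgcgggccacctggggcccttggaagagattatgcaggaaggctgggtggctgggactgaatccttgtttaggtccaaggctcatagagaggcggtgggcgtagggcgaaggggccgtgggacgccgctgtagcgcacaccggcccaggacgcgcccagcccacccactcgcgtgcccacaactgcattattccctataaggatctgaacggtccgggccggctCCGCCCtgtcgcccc
Timp4: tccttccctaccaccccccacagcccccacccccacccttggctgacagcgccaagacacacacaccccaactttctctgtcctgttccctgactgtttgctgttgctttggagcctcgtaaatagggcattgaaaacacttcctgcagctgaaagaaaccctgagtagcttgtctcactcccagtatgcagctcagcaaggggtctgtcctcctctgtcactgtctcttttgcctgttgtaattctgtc
The Timp1 window holds ACGTG starting 82 bases before the start and a GGGCGG match starting 8 bases before it. The Timp3 window holds 1 GGGCGG match, 15 bases before the start, and the Timp4 window neither core. Over 27025 genes with a window of the same length, 32.9% hold GGGCGG and 16.6% hold ACGTG, against 5 and 2 of the 7 genes here. None of the 7 windows holds TGANTCA, the core bound by AP-1, which 6.87% of all windows hold. A match describes these letters and no binding was measured.

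Between day 2 and day 15, 7 of the 10 genes gained at least 2-fold in intensity and 0 lost as much. Over all 11075 genes the shares were 16.2% higher and 11.6% lower. The median log2 difference was 1.78 over the 10 genes and 0.00 over all genes. The 7 were Mmp2, Mmp14, Adamts4, Adamts5, Ctsk, Htra1 and Timp4, so both metalloproteinases, both main aggrecanases, the cathepsin, the serine protease and 1 of 3 inhibitors were higher, while Adamts1, Timp1 and Timp3 ended within 2-fold of where they began. Counted from day 6 in place of day 2, 3 of the 10 were higher. With 1 array per day, differences between days carry no replicate error and no test. As a guide to measurement error, the SD of this log2 difference from 1 probe set was 0.60, from 3013 genes with 2 probe sets past the filter, which leaves out variation between dishes, labelling and arrays.

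**Figure D2:**
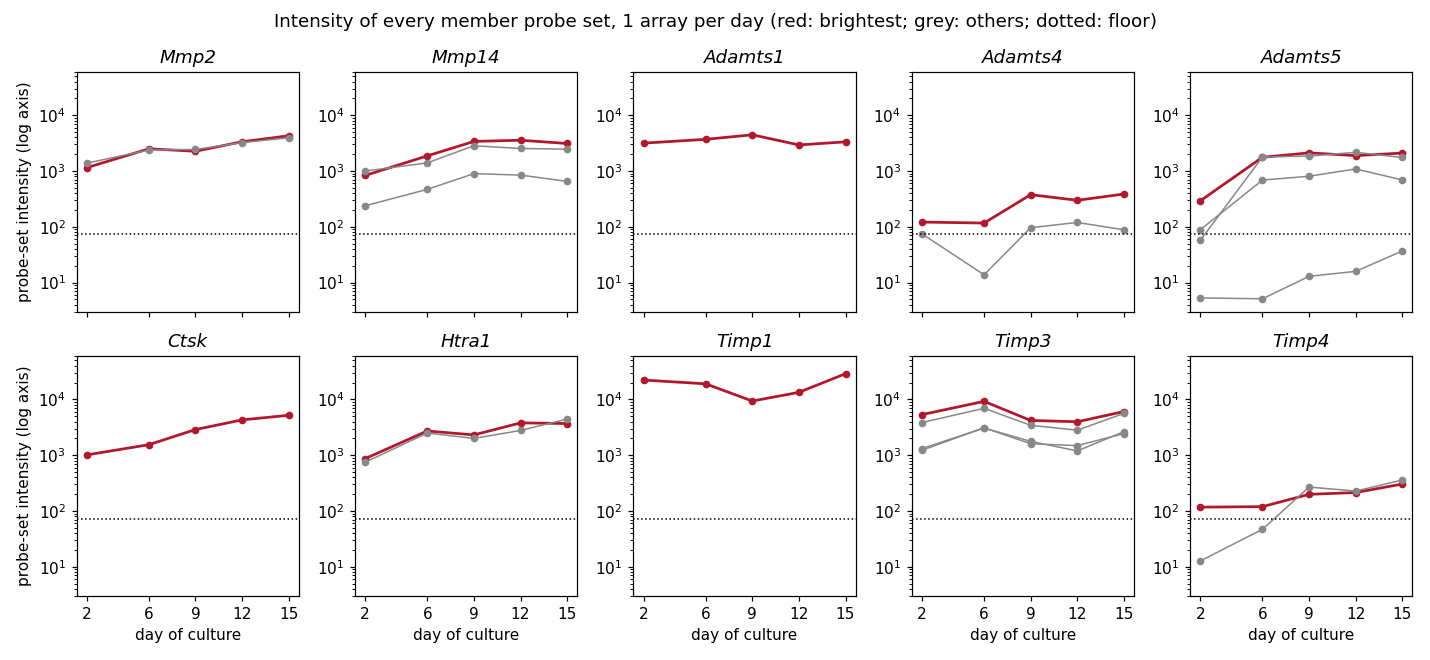
Intensity of all 22 probe sets of the 10 genes (log axis) against day of culture, 1 array per day, with the brightest probe set of each gene in red, the others in grey and the floor of 73.1 dotted. Ctsk climbed from 1010 to 5190, Adamts5 stood near its later level by day 6, and Timp1 had its lowest value, 9335, at day 9.

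Mmp2, the gene for gelatinase A, had intensities of 1150, 2505, 2265, 3352 and 4288 at days 2, 6, 9, 12 and 15 by its brightest probe set. The day 2 array was the lowest and day 15 the highest, with a dip at day 9 by this probe set. That put day 15 3.73-fold above day 2, a log2 difference larger than that of 94.2% of genes, and the other probe set of Mmp2 gave 2.86-fold. The difference was already 2.18-fold at day 6, which was 59.2% of the final log2 difference. From day 6 to day 9 the log2 difference was -0.14, where the SD from 1 probe set was 0.43. The other probe set had no dip, with 2389 at day 6 and 2436 at day 9.

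Mmp14, the membrane-bound activator of pro-MMP2, had 834, 1870, 3400, 3567 and 3119 in order of day. Days 9, 12 and 15 formed a high plateau, day 6 lay between, and day 2 was lowest. Day 15 was 3.74-fold above day 2, and the other 2 probe sets gave 2.47-fold and 2.74-fold. Mmp14 was 4.08-fold above day 2 at day 9 and 1.09-fold lower at day 15 than at day 9. Its highest value was at day 12 by the brightest probe set and at day 9, 2842 and 899, by the other 2. Mmp2 was highest at day 15 by both of its probe sets. From day 9 to day 15 the log2 difference was 0.92 for Mmp2 and -0.12 for Mmp14, where the SD from 1 probe set was 0.42.

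The 3 ADAMTS genes differed in time and size. Adamts5, the gene for an aggrecanase, had 292, 1767, 2119, 1891 and 2102 in order of day. Day 2 stood alone, and the 4 later arrays lay between 1767 and 2119. Day 15 was 7.19-fold above day 2, the largest difference among the 10 genes by their brightest probe sets, and 262 of all 11075 genes had a larger one. At day 6 the difference was 6.04-fold, 91.2% of the final log2 difference. Another probe set gave at least 23.9-fold, with 57.2 at day 2, under the floor, and 1788, 1853, 2169 and 1750 later. The third gave 7.80-fold, from 88.9 at day 2 to 693 at day 15, and the fourth was under the floor on all 5 arrays.

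Adamts4, the gene for the other main aggrecanase, had 122, 117, 377, 299 and 387 in order of day. Days 2 and 6 were low and days 9, 12 and 15 high, so its difference came a step later than that of Adamts5. Day 15 was 3.18-fold above day 2. These are dim values, and the second probe set of Adamts4, between 13.8 and 120, gave 1.18-fold, so the 2 probe sets did not give the same size. With the mean over both, the log2 difference was 0.96, under 2-fold.

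Adamts1, which lies beside Adamts5 on chromosome 16 and encodes a protease that also cuts aggrecan and versican, had 3164, 3704, 4465, 2939 and 3338 in order of day. It was highest at day 9 and lowest at day 12. Day 15 was 1.05-fold above day 2, and the highest day was 1.52-fold above the lowest, so Adamts1 was the only one of the 10 whose whole range stayed under 2-fold. Of all genes, 46.6% had a range of at least 2-fold. The neighbouring genes Adamts1 and Adamts5 thus had log2 differences of 0.08 and 2.85 between days 2 and 15.

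Ctsk, cathepsin K, had 1010, 1542, 2880, 4292 and 5190 in order of day. Each array was higher than the one before. Day 15 was 5.14-fold above day 2, and 400 genes had a larger difference. At day 6, 25.9% of the final log2 difference was present and at day 9 64.0%, so Ctsk was spread over the whole course where Adamts5 was not. A higher value at each of the 4 steps was found in 4.21% of all genes and in Ctsk and Timp4 among the 10.

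Markers of osteoclasts were measured beside Ctsk. The osteoclast list had 9 genes, of which 1 passed the intensity filter. Its summed intensity ranged from 446 at day 6, with 1 gene above the floor, to 792 at day 15, with 4 above it. Acp5, the tartrate-resistant acid phosphatase gene, had 36.3, 157, 218, 351 and 304 in order of day, which put the last array at least 4.15-fold above the first. Calcr, Dcstamp and Ocstamp, which encode the calcitonin receptor and a pair of fusion proteins, were under the floor on all 5 arrays. Mmp9, another osteoclast gene, was above the floor at day 12 alone, with 187. The rest of the list was above the floor on some days. Tnfrsf11a had 166, 147 and 110 at days 2, 9 and 15, and Itgb3 had 156 and 160 at days 2 and 15. Oscar had 107 at day 12 and Atp6v0d2 80.8 at day 15. Ctss, the cathepsin gene next to Ctsk on chromosome 3, was under the intensity filter, with 136, 141 and 84.7 at days 6, 12 and 15 and values under the floor at days 2 and 9.

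Htra1 had 867, 2714, 2309, 3793 and 3694 in order of day by its brightest probe set. Day 2 was lowest, days 6 and 9 were intermediate, and days 12 and 15 were highest. Day 15 was 4.26-fold above day 2, and 5.96-fold by the other probe set, whose highest value, 4442, was at day 15. At day 6 Htra1 was already 3.13-fold higher, 78.7% of its final log2 difference.

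The inhibitor Timp1 had 22227, 19020, 9335, 13391 and 28880 in order of day. It was lowest at day 9 and highest at day 15. Day 9 was 2.38-fold below day 2, which made Timp1 the only one of the 10 at least 2-fold lower on any later day than on day 2, where 10.3% of all genes were that much lower at day 9. Day 15 was 3.09-fold above day 9 and 1.30-fold above day 2. From day 12 to day 15 Timp1 was 2.16-fold higher, the only one of the 10 to reach 2-fold in that step, where 4.23% of all genes were that much higher and 3.92% lower. Timp1 has 1 probe set here, so its course has no second reading. Lowest values at day 9 were found in 12.7% of all genes.

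Timp3 had 5332, 9223, 4191, 3970 and 6058 in order of day by its brightest probe set. It peaked at day 6, was low at days 9 and 12 and higher again at day 15. All 4 probe sets of Timp3 were higher at day 6 than at day 2, lower at day 9 than at day 6 and higher at day 15 than at day 12. Their difference between days 6 and 2 ranged from 1.73-fold to 2.54-fold. For day 15 over day 2 the brightest gave 1.14-fold and the others 1.46-fold, 1.99-fold and 2.02-fold, so all 4 were higher at day 15, and whether the difference reached 2-fold depended on the probe set. Between days 6 and 9 Timp3 was 2.20-fold lower and Timp1 2.04-fold lower, the only 2 of the 10 to differ by 2-fold downward at that step, where 4.06% of all genes did. Adamts4 was the only one at least 2-fold higher there, where 5.87% of genes were.

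Timp4, an inhibitor known from heart and fat tissue, had 117, 120, 199, 214 and 304 in order of day by its brightest probe set. Each array was higher than the one before, though the first 2 differed by 1.02-fold. Day 15 was 2.60-fold above day 2. The other probe set had 12.7 and 46.9 at days 2 and 6, both under the floor, and 268, 227 and 359 later, which gave at least 4.91-fold. Both put days 9, 12 and 15 above days 2 and 6. With the floor raised to the 60th percentile of all values the log2 difference of the dim Timp4 was 0.75, under 2-fold, and with a pseudocount 0.99. The adipocyte markers Adipoq and Fabp4 had 79.3 and 267 at day 2, 16395 and 36538 at day 12, and 5924 and 24981 at day 15. Their highest array was day 12 and that of Timp4 day 15. Between days 12 and 15 the log2 difference of Timp4 was 0.51, where the SD from 1 probe set was 0.41. A link between Timp4 and these markers was not tested.

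**Figure D3:**
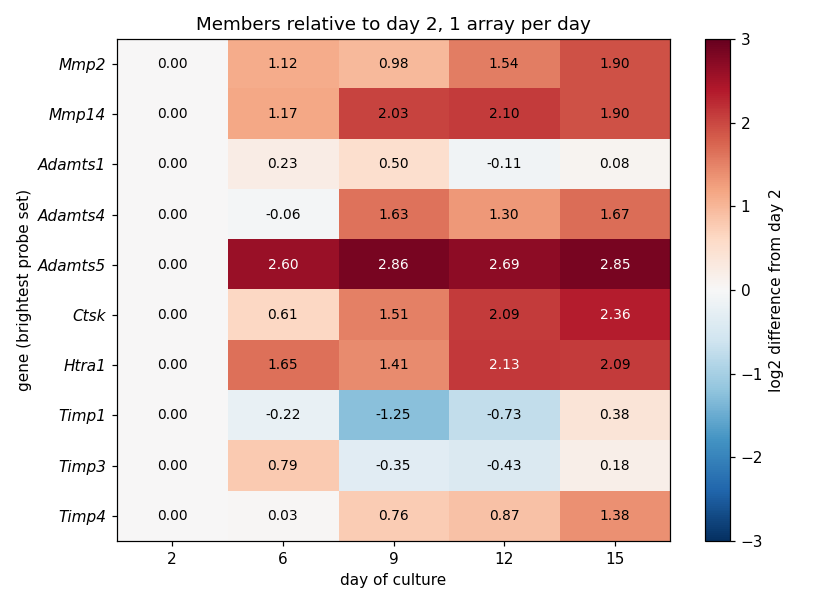
Log2 difference of each of the 10 genes from day 2 by its brightest probe set, 1 array per day, with the value in each cell (red: higher than day 2, blue: lower). Adamts5 was 2.60 by day 6, while Adamts4 stayed near 0 until day 9, and Timp1 was -1.25 at day 9.

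The steps between arrays differed in which genes took part. From day 2 to day 6, 4 of the 10 were at least 2-fold higher, Mmp2, Mmp14, Adamts5 and Htra1, where 10.2% of all genes were, and 0 at least 2-fold lower, where 5.70% were. The median over the 10 was 0.70 for that step on the log2 scale and 0.27, 0.09 and 0.31 for the next 3. From day 9 to day 12 none of the 10 differed by 2-fold either way, a step at which 1.72% of all genes were higher and 1.51% lower. Measured from day 6 in place of day 2, 3 of the 10 were 2-fold or more higher at day 15, Adamts4, Ctsk and Timp4, where 8.42% of all genes were, and 0 lower, where 6.16% were. The values at day 2 therefore decide the count for Mmp2, Mmp14, Adamts5 and Htra1, whose log2 differences from day 6 to day 15 were 0.78, 0.74, 0.25 and 0.44.

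A straight line of log2 intensity on day was fitted to the 5 arrays for every gene with limma, the only test run here, and a line cannot show courses that turn, such as those of Timp1 and Timp3. None of the 10 passed at an adjusted p of 0.05 over 11075 genes, and 7 of the 10 had an unadjusted p under 0.05, each with a positive slope, by limma, where 14.4% of all genes did and 12.7% had one with a negative slope. Over all genes 6, or 0.0542%, passed after adjustment in the rising direction and 0 in the falling direction, where 1410 had an unadjusted p under 0.05. The 7 were the genes at least 2-fold higher at day 15. Ctsk had the steepest and tightest line, 2.52 ± 0.30 (SE, n = 5 arrays) on the log2 scale over the 13 days, with a limma adjusted p of 0.0651. It passed with a pseudocount in place of the floor (limma adjusted p of 0.0432) and with a filter at the 70th percentile of intensity (0.0384). Without the day 2 array, 3 of the 10, Mmp2, Ctsk and Timp4, had an unadjusted p under 0.05 by limma.

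Mmp2 followed with 1.74 ± 0.35 (SE) and a limma adjusted p of 0.0764, and Timp4 with 1.44 ± 0.31 and 0.0791. For Adamts5 the line was 2.47 ± 0.85 with a limma adjusted p of 0.144, and its course was an early step and not a line. For Timp1 the line was 0.05 ± 0.72, which says nothing of the low value at day 9. For Timp3 it was -0.32 ± 0.56 and for Adamts1 -0.05 ± 0.35. A p above the threshold does not show that a gene was level.

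Likeness between courses was measured as the root mean square distance between log2 profiles, each centred on its own mean over the 5 days. Among the 10 genes Mmp2 and Htra1 were closest, at 0.22 on the log2 scale, then Adamts4 and Timp4 at 0.34, and Mmp14 and Htra1 at 0.36. Between probe sets of the same gene the distance was 0.14 for Mmp2, 0.23 for Htra1, 0.15 to 0.27 for Mmp14 and 0.14 to 0.31 for Timp3, so the distance between Mmp2 and Htra1 lay within the range found between probe sets of a single gene. For Timp4 and Adamts4 the distance between own probe sets was 0.48 and 0.61.

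Among 9888 genes with no array at the floor, the 3 nearest to Ctsk were Tmem159 at 0.03, Col8a1, a short-chain collagen gene, at 0.04, and Sp7, the osteoblast transcription factor gene, at 0.11. The nearest to Timp1 were Vamp2 at 0.09, Tceanc2 at 0.14 and the hexokinase gene Hk2 at 0.14. For Adamts5 they were Fam13c, Rpain and the small proteoglycan gene Fmod, between 0.11 and 0.13, and for Timp4 Jcad, Medag and Lgalsl, between 0.03 and 0.06. The single nearest genes to Mmp2, Mmp14, Adamts4 and Htra1 were Ap1s2, Zfp760, Gstm1 and Gm1976, and Timp3 was 0.02 from Tnfsf4. With 5 points per course and this many genes, close matches are a description of these arrays.

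By the order of genes in the same RefSeq annotation, each of the 3 TIMP genes lies within the span of a synapsin gene, Timp1 in Syn1 on chromosome X, Timp3 in Syn3 on chromosome 10 and Timp4 in Syn2 on chromosome 6. Syn1 and Syn2 did not pass the intensity filter and were each above the floor on 1 of 5 arrays. Syn3 went from 261 to 115, 2.27-fold lower. Pparg, the adipocyte regulator gene beside Timp4, had 1632, 1514, 2567, 2873 and 1501 in order of day, highest at day 12.

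In a wider list of 93 proteases, inhibitors and their receptors that includes the 10, 58 genes passed the intensity filter, 25 were under it and 10 were not named by a single-symbol probe set here. At day 15, 29 of the 58 stood 2-fold or more above day 2 and 5 as far below it, against 16.2% and 11.6% of all genes, with a median log2 difference of 1.01. Without the 10 the counts were 22 and 5 of 48, with a median of 0.84. Counted from day 6, 15 were higher and 2 lower, against 8.42% and 6.16% of all genes, and with the stricter filter at the 70th percentile 3 were lower, against 10% of all genes. By limma 1 of the 58, Mmp13, had a trend at an adjusted p under 0.05, and 25 positive and 5 negative slopes had an unadjusted p under 0.05, against 14.4% and 12.7% of all genes.

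Cathepsins were 2-fold higher in 6 of 9 measured genes and 2-fold lower in 0, ADAMTS genes in 5 of 8 and 0, matrix metalloproteinases in 6 of 9 with 2 lower, and ADAM genes, membrane proteases that shed surface proteins, in 1 of 7 with 0 lower. Genes listed as inhibitors were higher in 5 of 10, Serpinf1 among the 5, and lower in 2. These counts by class stand beside the same 16.2% and 11.6% of all genes. They rest on the brightest probe set of each gene, and other probe sets of some genes gave smaller differences. With the mean over probe sets, 24 of the 58 measured genes were higher and 4 lower, against 12.1% and 8.69% of all genes. Mmp13, collagenase 3, which cuts type II collagen, had 456, 1124, 4198, 6726 and 12995 in order of day. Mmp23, a membrane-anchored metalloproteinase gene, was 8.15-fold higher, and Fap, which encodes a fibroblast surface serine protease, 13.4-fold higher. Ctso was 9.21-fold and Ctsc, whose product activates serine proteases of granules, at least 9.70-fold higher. Plat, tissue plasminogen activator, was 6.27-fold higher and Adamts10 at least 6.76-fold higher.

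Among inhibitors outside the TIMP family, Serping1, the C1 inhibitor gene, had 88.5, 135, 891, 1939 and 2362 in order of day, 26.7-fold higher at the end. Serpinf1 was 12.5-fold higher. It encodes the antiangiogenic serpin PEDF and was counted in the inhibitor list, though PEDF is a serpin that does not inhibit proteases. Timp2, the TIMP that bridges MMP14 and pro-MMP2, had 10734 on the first array and 17345 on the last, 1.62-fold higher, and its 4 other probe sets past the filter gave log2 differences between 0.83 and 0.98. The inhibitor Cst6, cystatin E/M, went from 593 to 21.9, at least 8.11-fold lower, and A2m, alpha-2-macroglobulin, 4.85-fold lower. Plaur, the urokinase receptor gene, went from 4803 to 1313, 3.66-fold lower. The membrane metalloproteinase genes Mmp24 and Mmp16 were 4.01-fold and 2.13-fold lower. Mmp3, stromelysin 1, went from 466 to 301, and Plau, urokinase, from 118 to 182, both within 2-fold.

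**Figure D4:**
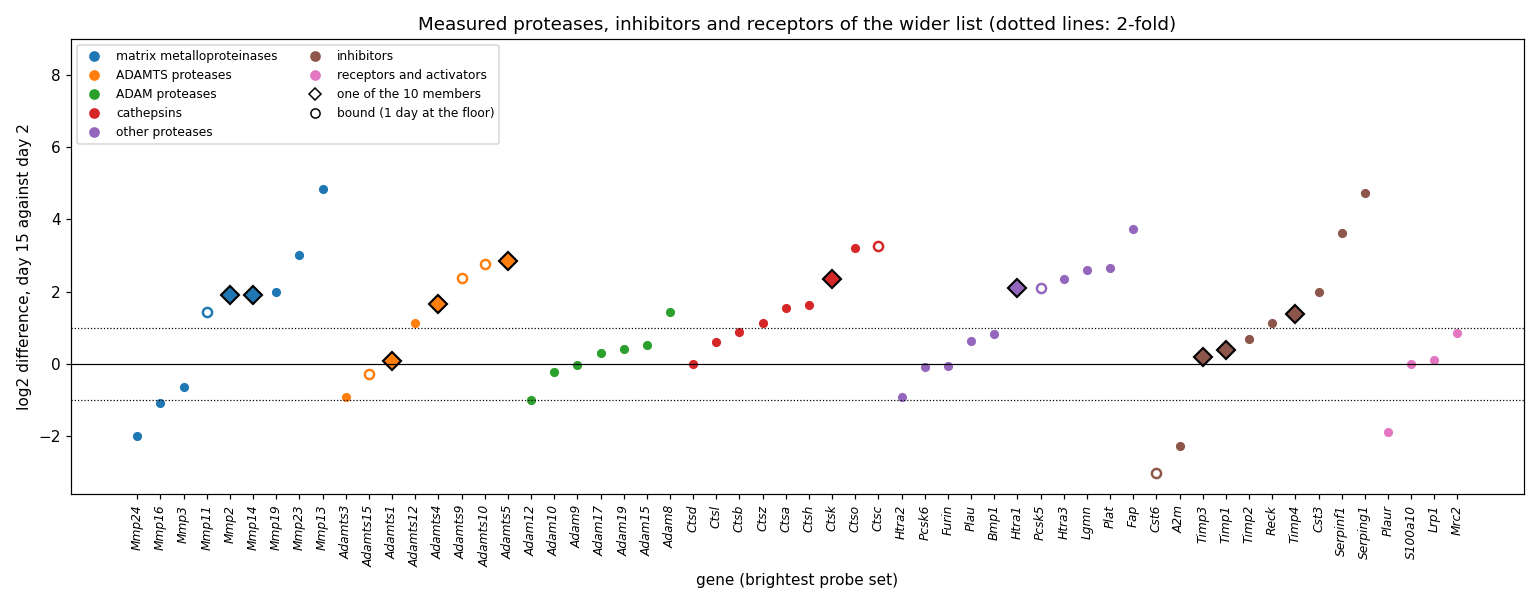
Log2 difference between day 15 and day 2 of the 58 measured genes of the wider list by brightest probe set, 1 array per day, coloured by class, with the 10 genes as diamonds, open circles for bounds and dotted lines at 2-fold. Points above the upper line number 29 and points below the lower line 5.

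Of 22 genes for substrates and partners of these enzymes, 21 were measured, of which 10 stood 2-fold or more above day 2 at the end and 4 as far below it, against 16.2% and 11.6% of all genes. The 4 lower were Acan, Col2a1, Col10a1 and Cd44, the aggrecan, type II and type X collagen and hyaluronan receptor genes. Acan had 19492, 11052, 2092, 723 and 2328 in order of day. Adamts5 stood near its later level from day 6 on, and Adamts4 was higher from day 9 on. A link between these courses was not tested. Cd44 was 2.30-fold lower, with log2 differences of -0.63 and -0.97 by its other probe sets. Vcan, the versican gene, was 2.42-fold up by its brightest probe set and had log2 differences of 0.19 and -0.53 by its others. The largest of the 10 higher were the collagen genes Col1a1, Col3a1 and Col1a2, at 116-fold, 85.5-fold and 80.4-fold. Other probe sets gave 12.5-fold for Col1a1, 98.2-fold for Col3a1, and 2.89-fold and 62.6-fold for Col1a2. Comp was 15.1-fold higher. Fmod, Dcn and Bgn, small proteoglycan genes, were 7.13-fold, 7.68-fold and 2.48-fold higher. Eln, the elastin gene, was at least 6.66-fold higher, with a log2 difference of 1.29 by its other probe set. Tgfb3, a growth factor gene, was 2.67-fold higher. Lrp1, the receptor that takes up several of these proteases and TIMPs, was 1.08-fold higher.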

How the data were processed

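Per the submitters' processing notes, the deposited values are MAS5 probe-set signal intensities, with no version given. They are linear, and the 2% trimmed mean of each array is 500.003, so the authors scaled arrays to a common mean, which would hide a change common to most transcripts. Median intensity was 106 to 118 per array. Symbols came from the platform annotation, updated through RefSeq (GRCm38.p6). Of 45101 probe sets, 932 with several symbols named no gene.

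Intensities under the 40th percentile, 73.1, were set to it and log2 was taken. A gene was read by its brightest probe set and kept at a mean of 106 or more. "At least" marks a fold against the floor. The trend was fitted with limma 3.58.1 in R 4.3.3 (lmFit, eBayes, 3 residual degrees of freedom, two-sided, Benjamini-Hochberg adjustment over 11075 genes) and tested on simulated data. It treats the arrays as independent, and eBayes added 2.83 prior degrees of freedom. The p-values weigh a slope against the scatter of the arrays about the line. That scatter may be technical and also holds courses that are not straight. Alternatives were other scalings, floors, filters, probe-set rules and days. Python 3.11.15, pandas 2.3.3 and matplotlib 3.10.9 did the rest.

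Named genes were the 10 members, the up to 10 largest differences of at least 2-fold in each direction of the wider list with Mmp13, Mmp9, Mmp3, Timp2 and Plau, substrates, and the 3 nearest courses. Other genes named (neighbours and markers) were chosen after their values were seen. Members and lists were chosen with earlier results of these data known.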

Additional observations from a re-analysis of the deposited data

How the results depend on the processing

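Quantile normalization, centring on the median, a pseudocount, a floor at the 20th or 60th percentile, the mean over probe sets, pooled days, other filters and day 12 in place of day 15 kept the count of higher members within 1.5 times of 7. The lowest of these counts was 5 of the 8 members left by the 70th percentile filter, where 14.8% of all genes were higher. Over these settings the share of all genes at least 2-fold higher ran from 9.85% with pooled days to 19.3% with centring on the median. Centring on the median moved the median of all genes by 0.14 on the log2 scale. None of the 7 members at least 2-fold higher took the opposite sign under these settings. Starting from day 6 in place of day 2, chosen after seeing the data like the use of day 12, gave 3 higher members, with Mmp2, Mmp14, Adamts5 and Htra1 under 2-fold, and 15 higher and 2 lower genes in the wider list. A filter at the 70th percentile left 8 members and 3 lower genes in the wider list. The dim genes went under 2-fold elsewhere: Adamts4 with the mean over probe sets, and Timp4 with the higher floor, the pseudocount and day 12 (log2 0.87). By limma 1 member, Ctsk, passed the trend test with the pseudocount and 1, Ctsk, with the 70th percentile filter, against 0 under the other settings, leaving out each day in turn included (0 to 0). The lowest adjusted p was 0.0692 to 0.269 with a day left out. No paired analysis was possible because each day has 1 array and no replicate number.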
